A study of Homo sapiens with 12 samples.

Results

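The 8 genes described here belong to the MHC class I antigen presentation pathway. They are the heavy chains HLA-B, HLA-C, HLA-E and HLA-F, the light chain B2M, the peptide transporter genes TAP1 and TAP2, and TAPBP. They were chosen by name from the 34595 genes with a value in the deposited table, and all 8 lay above the background floor on all 12 arrays. The arrays hold total RNA of 3 human gastric cancer cell lines, KATO-III, SNU-216 and SNU-601, which were cultured in serum-containing medium without any treatment. Each line was stained with an antibody to CD133, the cell surface protein encoded by PROM1, and sorted by flow cytometry into a CD133+ population (the brightest 10% of cells) and a CD133- population (the dimmest 6%). Each of the 6 populations was measured on 2 Illumina HT-12 v3 BeadChip arrays, here called replicate 1 and replicate 2. The labels do not state whether the 2 arrays came from separate sorts, so the p-values measure only the spread between these arrays, which may be technical. Each line is a single line in culture, without the immune cells of a tumor, and the fractions are the extremes of the staining. The series description names a different SNU line in place of SNU-216, and the labels of the arrays were followed.

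MHC class I molecules show peptides from inside the cell to CD8+ T cells and natural killer cells. Proteins are cut by the proteasome or by its interferon-inducible form, the immunoproteasome. The peptides are pumped into the endoplasmic reticulum by the TAP1-TAP2 transporter, and tapasin (encoded by TAPBP) bridges that transporter and the empty class I heavy chain while peptide is loaded. A peptide-loaded class I molecule consists of a heavy chain paired with beta-2-microglobulin (B2M). HLA-B and HLA-C are classical chains that present peptide to T cells, HLA-E presents leader peptides of other class I chains to natural killer cell receptors, and HLA-F is a nonclassical chain. Interferons raise the transcription of most of these genes through factors such as IRF1 and the transactivator NLRC5. Loss of class I molecules is a known route by which tumors escape from T cells.

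Values are the authors' quantile-normalized and background-subtracted intensities. Differences are on the log2 scale after values under a floor of 32.7 were set to that floor, and each is the mean of the CD133+ arrays minus that of the CD133- arrays of a line. A gene was called where its adjusted p in limma was under 0.05 among the 20147 genes tested. As a check of the sort, PROM1 was higher in the CD133+ arrays of KATO-III by 1.10, of SNU-216 by 2.02 and of SNU-601 by 1.86. Each array had 16320 to 16474 genes over the floor. All 7 epithelial markers were above the floor in all populations. Of 12 leukocyte markers, 6 were at or below the floor on all 12 arrays, among them PTPRC, CD3D, CD3E and MS4A1. The summed leukocyte signal ranged from 106 to 132 in SNU-216, from 5856 to 8388 in KATO-III and from 9431 to 10343 in SNU-601. Most of that sum in KATO-III and SNU-601 came from LYZ, the lysozyme gene, which secretory epithelium of the stomach also transcribes. Of 9 stromal and endothelial markers, 6 were at or below the floor on all 12 arrays. Some markers differed between the fractions. Of the 7 epithelial markers, 2 were called lower in CD133+ cells of KATO-III, 2 lower and 1 higher in SNU-216, and 2 lower in SNU-601. The epithelial marker ELF3 measured 3835 and 3728 in CD133+ against 7545 and 6646 in CD133- cells of KATO-III. In KATO-III LYZ was higher in CD133+ cells (0.66), CD14, a monocyte marker, was lower (-0.53) at 856 and 835 against 1202 and 1242, and LUM, a fibroblast matrix gene, was lower (-3.31) at 64.4 and 91.6 against 743 and 783. COL1A1, a collagen gene, was at least 1.80-fold higher in KATO-III CD133+ cells, and LUM at least 1.87-fold higher in SNU-216 CD133+ cells, both against CD133- arrays under the floor. In SNU-601 CSF1R, a macrophage receptor gene, was higher (0.39) at 168 and 174 against 139 and 124. The summed stromal and endothelial signal ran from 117 to 196 in CD133+ and from 809 to 841 in CD133- cells of KATO-III, and from 28.0 to 229.9 in the other lines. The part of these markers in the results was not tested.

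The main pattern lay in SNU-216. There, 7 of the 8 genes were lower in CD133+ than in CD133- cells, by between 0.32 and 0.98 on the log2 scale, and B2M was not called. Of all genes tested, 14.0% were called lower and 14.6% higher in SNU-216 CD133+ cells. The median difference of the 8 genes was -0.60, against 0 over all genes tested. In KATO-III, TAP2, HLA-B and B2M were higher in CD133+ cells and none was lower. In SNU-601, HLA-B and TAP1 were higher and TAPBP was lower.

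**Figure D1:**
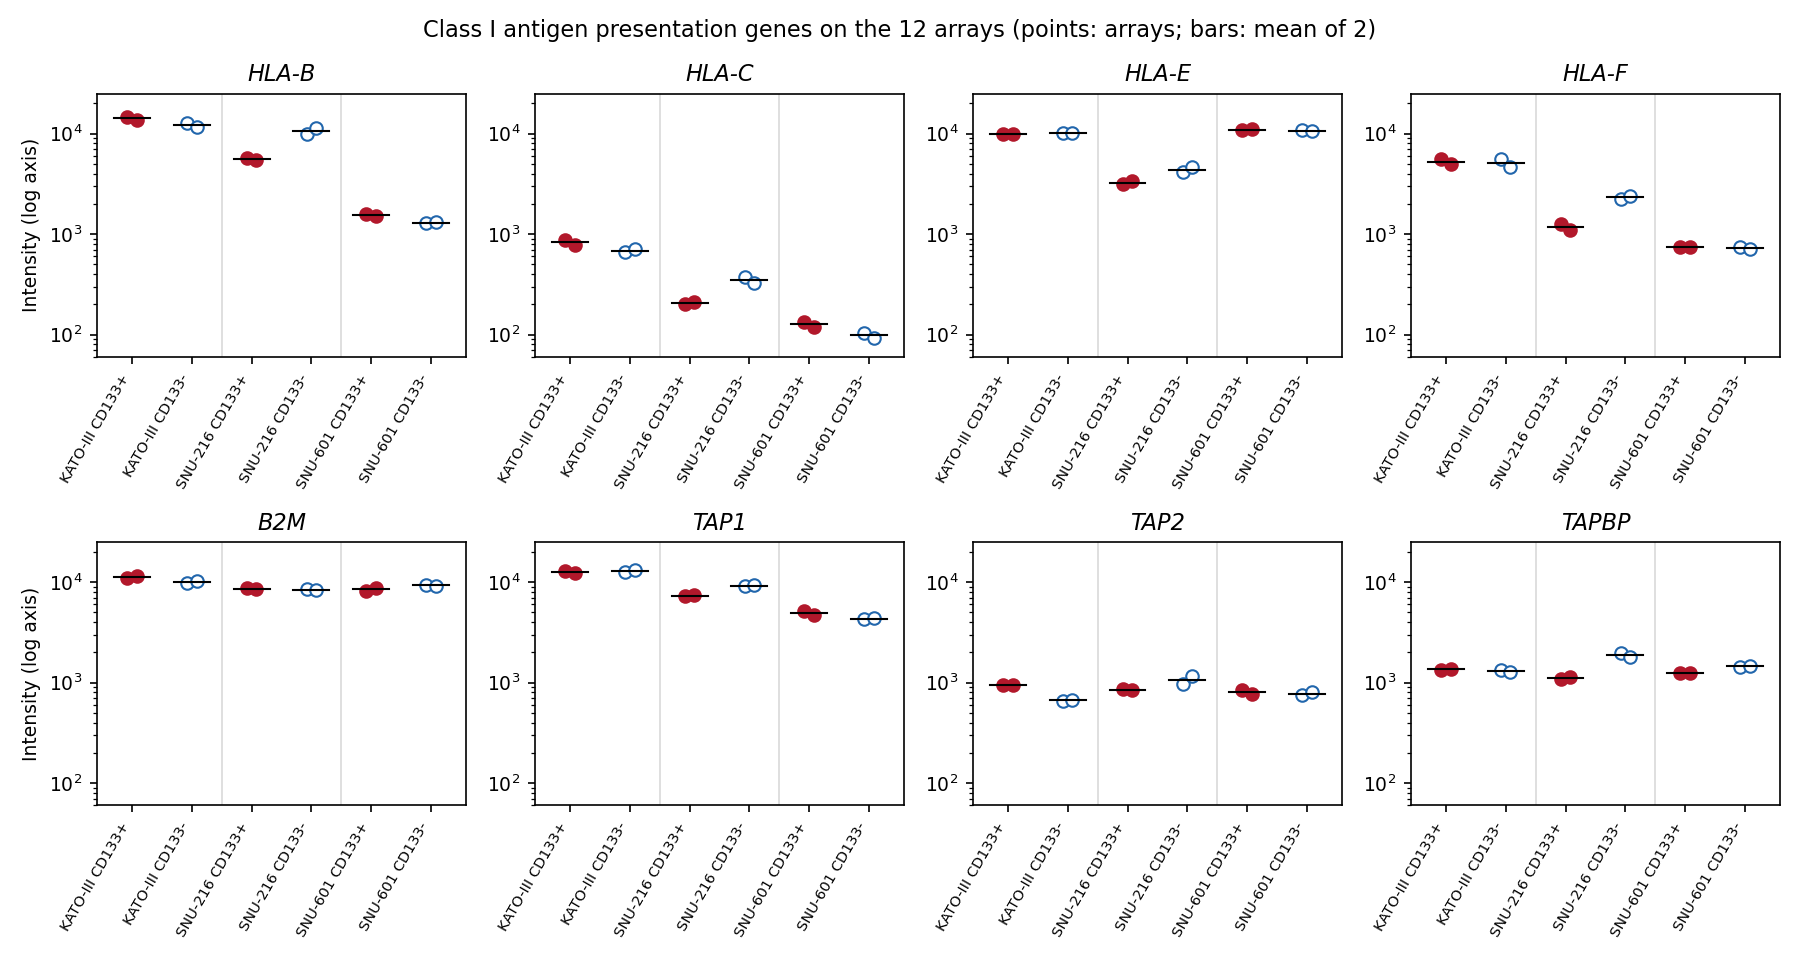
Deposited intensity (log axis) of the 8 genes on each of the 12 arrays, with a panel for each gene and a column for each of the 6 populations. Filled red points are CD133+ arrays, open blue points are CD133- arrays, and the bar is the mean of the 2 arrays. In SNU-216 the filled points lie below the open points for all genes but B2M, and B2M stays between 8174 and 11441 on all 12 arrays.

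Among the heavy chains, HLA-B had the widest range of levels. In KATO-III it measured 14706.5 and 13609 in CD133+ cells and 12681 and 11727.5 in CD133- cells. In SNU-216 it measured 5648 and 5436 in CD133+ cells against 9969 and 11441 in CD133- cells, and in SNU-601 it measured 1590 and 1507 against 1280 and 1315. The fractions did not overlap in any of the 3 lines, but the CD133+ arrays were the lower ones in SNU-216 and the higher ones in KATO-III and SNU-601. The SNU-216 difference was -0.95 ± 0.07 (SE; adjusted p = 3.726e-05), a 1.93-fold lower level, and it was called under all 22 alternative settings. The differences in KATO-III (0.21, adjusted p = 0.045) and SNU-601 (0.25, adjusted p = 0.046) stood close to the threshold. With 1 array left out at a time, HLA-B was called in 2 of 12 fits in each of these 2 lines, those without SNU-216 CD133- replicate 1 or replicate 2, with adjusted p up to 0.24 in KATO-III and 0.20 in SNU-601.

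HLA-C is the other classical chain among these genes. Its KATO-III intensities were 876 and 777 in CD133+ against 661 and 707 in CD133- cells. They were 201 and 213 against 376 and 328 in SNU-216, and 134 and 119 against 103 and 93.4 in SNU-601. Its fractions were also apart in each line, with the CD133+ arrays lower in SNU-216. Its level was 1.70-fold lower in SNU-216 CD133+ cells, a difference of -0.76 ± 0.11 (SE; adjusted p = 0.0011). The call was lost when only the 4 arrays of SNU-216 were fitted (adjusted p = 0.059). HLA-C was not called in KATO-III, where the difference was 0.27 (95% interval 0.02 to 0.53, adjusted p = 0.088), or in SNU-601, where it was 0.36 (0.11 to 0.62, adjusted p = 0.059).

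HLA-F gave the largest difference of the 8 genes in SNU-216. It measured 1250 and 1103 in CD133+ cells and 2235 and 2416 in CD133- cells, which is 1.98-fold lower (-0.98 ± 0.10, adjusted p = 0.00014). In KATO-III it measured 5579 and 4946 against 5558 and 4634, and in SNU-601 it measured 740 and 746 against 751 and 719. The fractions overlapped in both of these lines. The difference was 0.05 in KATO-III (95% interval -0.17 to 0.27) and 0.02 in SNU-601 (-0.21 to 0.24), so changes of the size seen in SNU-216 lay outside these intervals.

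HLA-E differed from the other heavy chains in being lowest in SNU-216. It measured 3128 and 3366 in CD133+ cells and 4116 and 4628 in CD133- cells of SNU-216, a difference of -0.43 ± 0.06 (adjusted p = 0.00076) or 1.35-fold. Its intensities were 9888 and 9835 against 10224.5 on both arrays in KATO-III, and 10740.2 and 11066 against 10765 and 10534 in SNU-601. The KATO-III fractions stood apart by a small step (-0.05, adjusted p = 0.56) and the SNU-601 fractions overlapped. The SNU-216 call was lost with only the 4 arrays of that line in the fit (adjusted p = 0.092).

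The promoters of 3 of these chains and of B2M are shown because the chains moved together in SNU-216 while B2M did not. They are the RefSeq windows on GRCh38.p14, from 250 bases before to 50 bases after the annotated start, each read 5′ to 3′ on the strand of the gene. They are the reference sequence, not that of the cell lines. HLA-B lies at chr6:31357130-31357429 on the minus strand, HLA-C at chr6:31272043-31272342 on the minus strand, HLA-F at chr6:29723184-29723483 on the plus strand and B2M at chr15:44711267-44711566 on the plus strand. Capitals mark matches, on either strand, to GAANNGAAA (a core of interferon response factor sites), a 10-letter NF-kappaB motif (GGGA, any base, T, any 2 bases, CC) and TGACGC (part of the X2 or CRE-like box).
HLA-B: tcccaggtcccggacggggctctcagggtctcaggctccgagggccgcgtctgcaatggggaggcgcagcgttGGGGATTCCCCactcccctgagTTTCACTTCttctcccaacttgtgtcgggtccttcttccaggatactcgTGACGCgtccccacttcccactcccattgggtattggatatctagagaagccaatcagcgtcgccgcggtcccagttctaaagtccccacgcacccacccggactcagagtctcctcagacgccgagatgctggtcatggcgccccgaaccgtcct
HLA-C: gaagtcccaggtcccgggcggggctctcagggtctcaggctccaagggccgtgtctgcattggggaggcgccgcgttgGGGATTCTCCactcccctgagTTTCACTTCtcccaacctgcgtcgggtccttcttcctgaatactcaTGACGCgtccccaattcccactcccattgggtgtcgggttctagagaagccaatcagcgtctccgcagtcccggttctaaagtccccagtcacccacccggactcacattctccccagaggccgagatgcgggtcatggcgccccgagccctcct
HLA-F: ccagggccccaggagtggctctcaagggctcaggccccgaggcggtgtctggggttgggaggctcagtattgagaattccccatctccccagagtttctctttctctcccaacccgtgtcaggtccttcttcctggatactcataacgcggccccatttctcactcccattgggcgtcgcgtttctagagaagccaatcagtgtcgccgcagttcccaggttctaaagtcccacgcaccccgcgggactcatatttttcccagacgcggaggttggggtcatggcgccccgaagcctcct
B2M: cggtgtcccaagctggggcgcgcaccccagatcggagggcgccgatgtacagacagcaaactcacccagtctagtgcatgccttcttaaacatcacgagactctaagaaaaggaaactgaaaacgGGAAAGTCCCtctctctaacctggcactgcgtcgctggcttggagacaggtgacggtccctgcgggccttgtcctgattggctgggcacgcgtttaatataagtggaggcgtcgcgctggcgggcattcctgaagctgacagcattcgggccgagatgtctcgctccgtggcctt
HLA-B and HLA-C held all 3 motifs. In HLA-B the interferon response factor core began 155 bases before the start, the NF-kappaB motif matched on both strands in overlapping positions, 177 and 176 bases before it, and TGACGC began 106 bases before it. In HLA-C these lay 151, 172 and 105 bases before the start. Of the exact letters searched, B2M held only the NF-kappaB motif, 125 bases before the start, and HLA-F held none in its window. The core searched has 2 bases between GAA and GAAA, and forms with 3 bases between them were not searched. The windows of B2M and HLA-F each hold such a form on 1 strand, left in small letters, as do those of TAP1, TAP2 and TAPBP. The lack of capitals there does not show that an interferon response site is absent. Whether any of these sites is in use was not tested. The table gave a promoter for 7 of the 8 genes, all but HLA-E, and the first of 2 entries was used for TAP1. The exact letters GAANNGAAA were found in 3 of the 7 (HLA-B, HLA-C and TAP2), against 7.66% of 35116 promoters of the same length. These counts do not cover all forms of interferon response sites. NF-kappaB matches were found in 4 (HLA-B, HLA-C, B2M and TAP1), against 5.13% of all, and TGACGC in 3 (HLA-B, HLA-C and TAP2), against 9.14%.

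B2M had the narrowest range of the 8 genes, with a 1.33-fold span between the highest and lowest population means. Its KATO-III intensities were 10922 and 11441 in CD133+ against 9705 and 10265 in CD133- cells. They were 8787 and 8432 against 8545 and 8292 in SNU-216, and 8174 and 8809 against 9342 and 9212 in SNU-601. Its SNU-216 fractions overlapped, and the difference of 0.03 had a 95% interval from -0.08 to 0.15 (adjusted p = 0.76). Decreases as large as those of the heavy chains lay outside this interval. In KATO-III it was higher by 0.16 ± 0.05 (adjusted p = 0.033), a call that was lost without CD133+ replicate 2 (0.13, adjusted p = 0.16) or CD133- replicate 1 (0.12, adjusted p = 0.17). In SNU-601 the difference was -0.13 (adjusted p = 0.14).

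TAP1, which encodes an ATP-binding chain of the peptide transporter, measured 7219 and 7413 in CD133+ against 9068 and 9250.4 in CD133- cells of SNU-216. This was 1.25-fold lower (-0.32 ± 0.05, adjusted p = 0.00099), with no overlap of the fractions, and it was called under all 22 settings. In SNU-601 it measured 5092 and 4741 against 4245 and 4345, higher by 0.19 ± 0.05 (adjusted p = 0.024). That call was lost without CD133+ replicate 1 (0.14), CD133- replicate 1 (0.18) or CD133- replicate 2 (0.21) of SNU-601. In KATO-III it measured 12786 and 12172 against 12650 and 13029, and the fractions overlapped.

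TAP2, the partner chain of the transporter, gave the largest KATO-III difference of the 8 genes. It measured 941 and 949 in CD133+ against 661 and 675 in CD133- cells, which is 1.42-fold higher (0.50 ± 0.08, adjusted p = 0.0014), and of the 3 KATO-III calls it alone was made under all 22 settings. In SNU-216 the direction was the opposite, with 866 and 837 against 978 and 1152, a difference of -0.32 ± 0.08 (adjusted p = 0.020). This call was lost without CD133+ replicate 1 (-0.34, adjusted p = 0.064), CD133+ replicate 2 (-0.29, adjusted p = 0.10) or CD133- replicate 2 (-0.20, adjusted p = 0.11). In SNU-601 it measured 847 and 765 against 746 and 802, and the fractions overlapped.

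TAPBP encodes tapasin, the bridge between transporter and heavy chain. In SNU-216 it measured 1075 and 1141 in CD133+ cells and 1962 and 1815 in CD133- cells, 1.70-fold lower (-0.77 ± 0.05, adjusted p = 1.958e-05), and this was called under all 22 settings. In SNU-601 it measured 1248 and 1237 against 1434 and 1477.5, lower by a smaller step (-0.23 ± 0.05, adjusted p = 0.020). The SNU-601 call was lost without any of the 4 SNU-601 arrays (differences from -0.25 to -0.21, adjusted p from 0.053 to 0.094). In KATO-III it measured 1342 and 1359 against 1331 and 1277, a difference of 0.05 (95% interval -0.07 to 0.17).

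**Figure D2:**
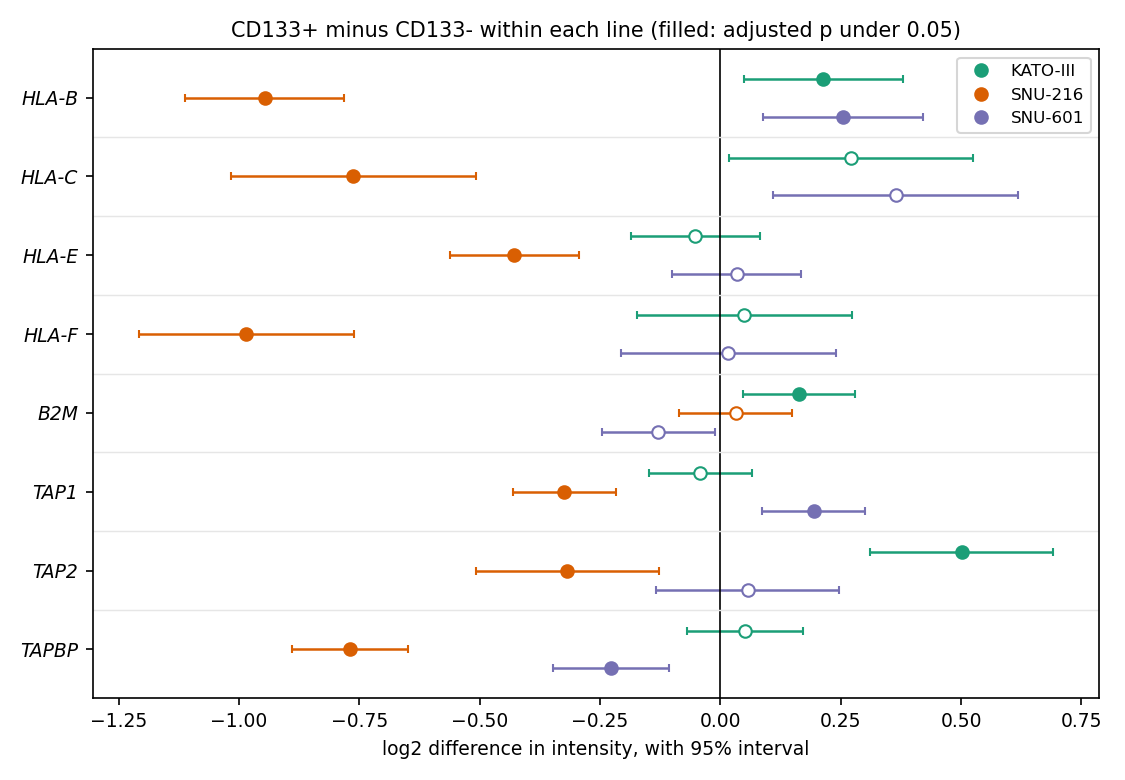
Log2 difference in intensity between CD133+ and CD133- cells of each gene in each line, with 95% intervals from limma, filled where the adjusted p was under 0.05. The SNU-216 points lie between -0.98 and -0.32 for 7 genes and at 0.03 for B2M, while the KATO-III and SNU-601 points lie between -0.23 and 0.50.

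Counted over the lines, the shares of all genes called give the background. In KATO-III, 3 of the 8 genes were called, all higher, where 39.3% of all genes were called (18.7% higher). In SNU-216, 7 of 8 were called, where 28.6% of all genes were. In SNU-601, 3 of 8 were called, where 16.4% of all genes were (8.59% higher and 7.78% lower). With only the 4 arrays of a line in the fit, 1 of the 8 was called in KATO-III (TAP2), 4 in SNU-216 (HLA-B, HLA-F, TAP1 and TAPBP) and 0 in SNU-601 (TAPBP adjusted p = 0.070, TAP1 0.17 and HLA-B 0.10). The arrays of the 2 fractions did not overlap for 6 of the 8 genes in KATO-III, 7 in SNU-216 and 5 in SNU-601, while this held for 63.1%, 54.9% and 49.3% of all genes. None of the 8 was called in the same direction in all 3 lines, which held for 1.06% of all genes. TAP2 and HLA-B were called in opposite directions in KATO-III and SNU-216, as were 5.32% of all genes.

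The differences between lines in the CD133 effect were tested directly. The interaction of line and fraction was called for all 8 genes, with adjusted p from 5.266e-05 for HLA-B to 0.027 for B2M, and 44.4% of all genes passed the same test. For B2M the call was lost in 5 of 12 fits with an array left out, without KATO-III CD133+ replicate 2, KATO-III CD133- replicate 1, SNU-601 CD133+ replicate 1 or either SNU-601 CD133- array (adjusted p from 0.059 to 0.075). With line as a block, the comparison over all lines called 0 of the 8 genes, where 4.73% of all genes were called (2.62% higher and 2.11% lower). TAPBP had the lowest adjusted p there (-0.32 ± 0.11, adjusted p = 0.12), and it was the 1 gene of the 8 with an unadjusted p under 0.05 (0.017). It was lower in CD133+ cells of 2 lines and not called in the other. The signal-to-noise ratio of the 6 CD133+ and 6 CD133- arrays, the measure by which the study ranked genes, was -0.82 for TAPBP and lay between -0.09 and 0.12 for the other 7 genes. With each array left out in turn it ran from -0.97 to -0.69 for TAPBP, from -0.01 to 0.48 for TAP2 and from -0.25 to 0.21 for the other 6 genes.

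Levels also differed between the lines. HLA-B, HLA-C, HLA-F and TAP1 were highest in KATO-III, intermediate in SNU-216 and lowest in SNU-601, in both fractions. Averaged over fractions, HLA-B was 9.27-fold lower in SNU-601 than in KATO-III, HLA-F 6.99-fold, HLA-C 6.75-fold and TAP1 2.75-fold lower. These log2 differences were -3.21 ± 0.05, -2.80 ± 0.07, -2.75 ± 0.08 and -1.46 ± 0.03 (SE). The array values of neighboring populations in the order of HLA-B and HLA-C did not overlap anywhere along that order. In CD133- arrays alone the step of HLA-B from KATO-III to SNU-216 was not called (-0.19, adjusted p = 0.053). For HLA-F the KATO-III fractions overlapped with each other, as did the SNU-601 fractions, and for TAP1 the KATO-III fractions overlapped.

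HLA-E followed another order. It was 2.67-fold lower in SNU-216 than in KATO-III and 2.86-fold lower in SNU-216 than in SNU-601. The difference between SNU-601 and KATO-III was 0.10 (95% interval 0.01 to 0.20, adjusted p = 0.063), and it was called without SNU-216 CD133- replicate 1 or replicate 2 (0.10, adjusted p = 0.023 each). SNU-601 therefore held the lowest HLA-B and the highest HLA-E means of the 3 lines, although the latter order was not called against KATO-III.

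B2M was lower than in KATO-III by 0.31 in SNU-216 and by 0.25 in SNU-601, and it was not called between these 2 lines (-0.06, 95% interval -0.14 to 0.02). In CD133- arrays alone, its SNU-601 difference from KATO-III was not called (-0.11, adjusted p = 0.13). TAP2 and TAPBP spanned 1.59-fold and 1.70-fold over the population means. TAPBP was the highest in SNU-216 CD133- and the lowest in SNU-216 CD133+ cells, so its order between lines turned with the fraction. Against KATO-III, SNU-216 was higher by 0.12 on average, but lower by 0.29 (adjusted p = 0.0013) when only CD133+ arrays were compared. Against SNU-601 it was higher by 0.10 on average and lower by 0.17 in CD133+ arrays (adjusted p = 0.026). The average call against SNU-601 was also lost without SNU-216 CD133+ replicate 2, SNU-216 CD133- replicate 1 or any of the 4 SNU-601 arrays (0.08 to 0.11, adjusted p from 0.051 to 0.11). That against KATO-III was lost without KATO-III CD133- replicate 2 (0.11, adjusted p = 0.053) or SNU-216 CD133+ replicate 2 (0.10, adjusted p = 0.052). TAP2 was higher in SNU-216 than in KATO-III by 0.26 on average and was not called in CD133+ arrays (-0.15, adjusted p = 0.16). It was higher than in SNU-601 by 0.27 on average, and in CD133+ arrays alone this was not called (0.08, adjusted p = 0.49).

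**Figure D3:**
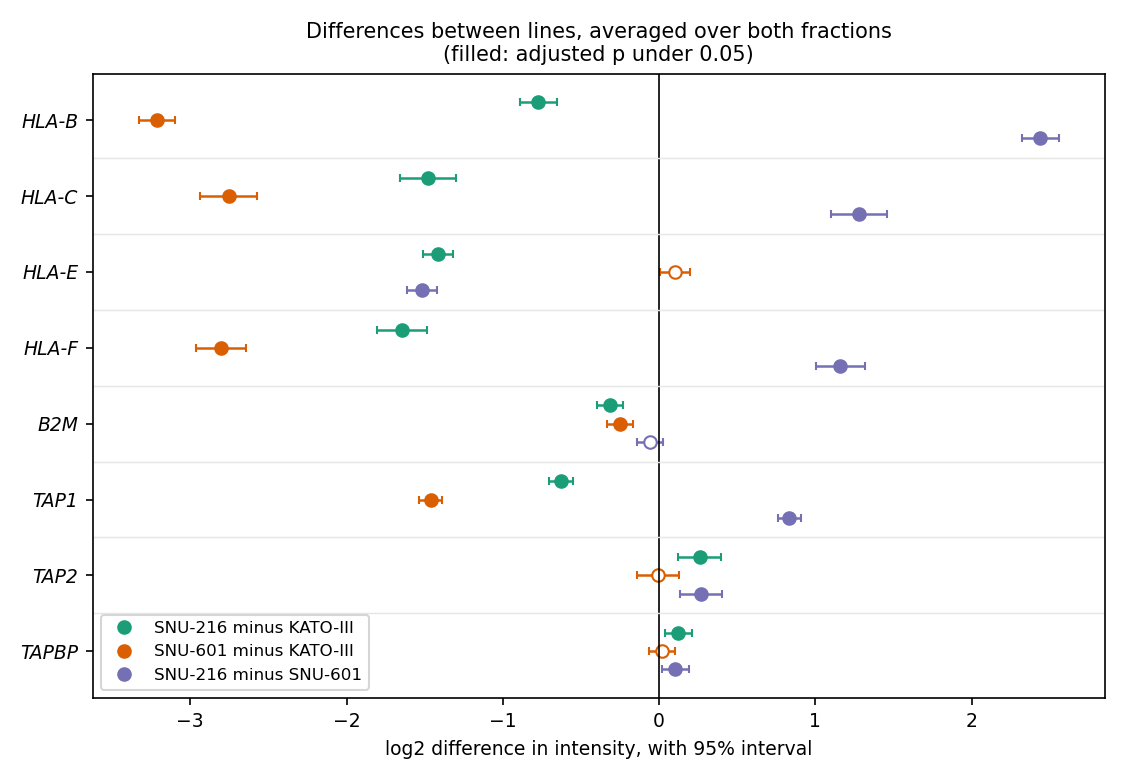
Log2 difference in intensity between the 3 pairs of lines, averaged over both fractions, with 95% intervals from limma, filled where the adjusted p was under 0.05. HLA-B, HLA-C, HLA-F and TAP1 lie at -3.21 to -1.46 for SNU-601 minus KATO-III, while HLA-E, TAP2 and TAPBP lie between -0.01 and 0.10 for that pair.

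In counts, 8 of the 8 genes were called between SNU-216 and KATO-III (2 higher and 6 lower in SNU-216), where 62.0% of all genes were called (31.7% higher and 30.3% lower). Between SNU-601 and KATO-III 5 were called, all lower in SNU-601, against 58.6% of all genes (29.9% higher and 28.7% lower). Between SNU-216 and SNU-601 7 were called, 6 higher and 1 lower in SNU-216, against 56.5% of all genes (29.4% higher and 27.1% lower). The 3 pairs of lines share arrays, so these counts are not independent of each other.

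Heavy chain genes are near-identical in parts and differ between alleles, so a probe may read more than 1 of them or fail on an allele. The part of allele sequence in the line differences of HLA-B, HLA-C and HLA-F was not tested. Both fractions of a line come from the same cultured line.

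HLA-H, a class I pseudogene, was called in the direction of HLA-B in 2 lines. It was higher in KATO-III CD133+ cells (0.24) and lower in SNU-216 CD133+ cells (-0.73 ± 0.07), where it measured 4030 and 3755 against 6343 and 6601. Whether its probes also read the transcripts of other chains is not known here, so its value is uncertain. Of the 5 other class I chains listed, 3 had a row, and HLA-G was not called in any line.

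Of the 6 immunoproteasome genes, 3 were lower in SNU-216 CD133+ cells and none was higher. PSMB8, a catalytic subunit, measured 1135 and 1107 against 1856 and 1924 (-0.75 ± 0.04, adjusted p = 8.27e-06). PSMB9, which is transcribed from the region next to TAP1, measured 391 and 385 against 685 and 758 (-0.89 ± 0.08). Both SNU-216 pairs stood apart. PSMB10, the remaining catalytic subunit, was named here for its call and was lower by 0.48. The activator subunits PSME1 and PSME2 and the assembly factor POMP were not called in any line. In SNU-601 PSMB9 was higher in CD133+ cells (0.40, adjusted p = 0.014), and in KATO-III PSMB10 was lower (-0.25). Between lines PSMB9 kept the order of the heavy chains, 1896 to 2068 in KATO-III, 385 to 758 in SNU-216 and 151 to 225 in SNU-601.

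Of 13 loading and trimming genes, 3 were lower and none higher in SNU-216 CD133+ cells. TAPBPL, which encodes a tapasin-related editor of class I peptides, was lower by 1.14 ± 0.23, with 60.4 and 75.7 against 121 and 183. The aminopeptidase gene ERAP2 was lower by 0.77 and the peptidase gene THOP1 by 0.37, both named after their calls were seen. The chaperones of the loading complex, CALR, CANX and PDIA3, were not called in any line, with differences between -0.22 and 0.47 and PDIA3 close to the floor. In KATO-III, NPEPPS, a cytosolic aminopeptidase, was higher (0.76) and the chaperone HSPA5 was lower (-0.53), with 2 of the 13 higher and 1 lower. In SNU-601 the calls of these 2 genes ran the opposite way, HSPA5 by 0.36 and NPEPPS by -0.26.

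**Figure D4:**
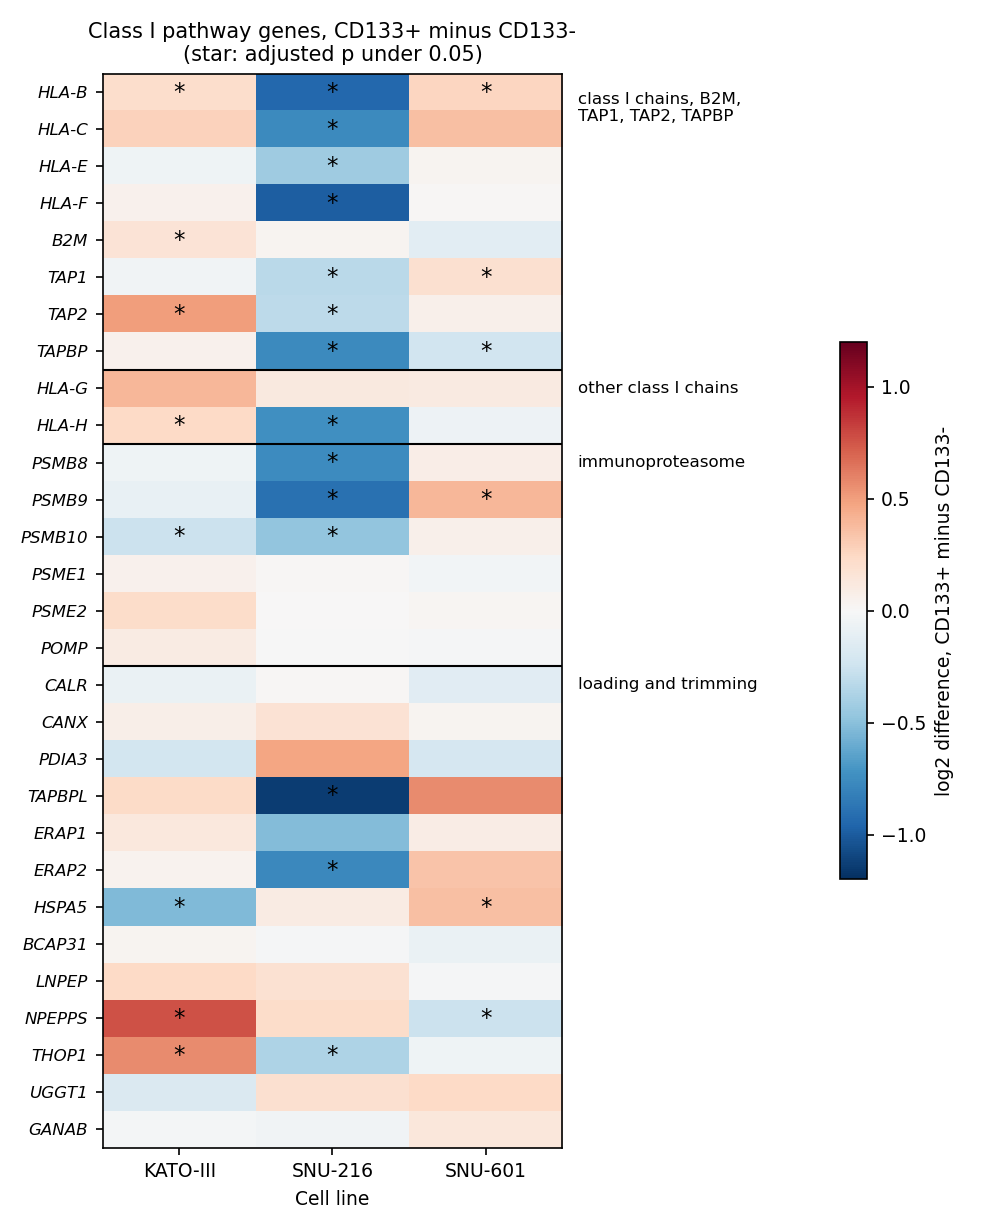
Log2 difference in intensity between CD133+ and CD133- cells (color, from blue for lower to red for higher in CD133+) of the 8 genes and of genes of 3 pathway lists, with a star where the adjusted p was under 0.05. The SNU-216 column holds 14 stars, all on blue cells, while the KATO-III and SNU-601 columns hold stars of both colors.

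Among 21 regulators, 8 were lower and 6 higher in SNU-216 CD133+ cells, 11 lower and 7 higher in KATO-III, and 2 lower and 5 higher in SNU-601. IRF1, the factor that interferon induces at class I promoters, was the largest decrease in SNU-216, at 1046 and 1085 against 2340 and 2434 (-1.16 ± 0.07, adjusted p = 1.082e-05). It was lower in KATO-III by 0.40 and higher in SNU-601 by 0.61, so its direction in KATO-III was not that of HLA-B. NLRC5, the class I transactivator, was under the floor on both SNU-216 CD133+ arrays (15.4 and 22.8) and at 51.3 and 70.3 in CD133- cells, at least 1.84-fold lower (adjusted p = 0.0033). It stayed under 71.8 on all 12 arrays.

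NFKB1, IRF2 and IFNGR1 were also called in all 3 lines, and they did not share a direction with the class I chains throughout. NFKB1, which encodes an NF-kappaB subunit, was lower in KATO-III (-0.20) and SNU-216 (-0.45) and higher in SNU-601 (0.28). IRF2, which can repress and activate interferon response genes, was higher in KATO-III (1.02) and lower in SNU-601 (-1.09). In SNU-216 both CD133+ arrays of IRF2 were under the floor, at 19.8 and 25.5 against 57.3 and 48.5 in CD133- cells, and it was at least 1.61-fold lower. IFNGR1, a chain of the interferon gamma receptor, was lower in KATO-III (-0.52) and SNU-601 (-0.27) and higher in SNU-216 (0.37). RELA, another NF-kappaB subunit gene, had the direction of HLA-B in each line, as did RFXAP. In CD133+ against CD133- cells RELA measured 578 and 569 against 367 and 347 in KATO-III. It measured 553 and 571 against 685 and 852 in SNU-216, and 405 and 365 against 338 on both arrays in SNU-601. The part of any regulator in the class I differences was not tested. The largest remaining calls were ATF1 (1.37) and CREB1 (-0.89) in KATO-III, both of which bind CRE-like boxes, and the kinase gene JAK2 in SNU-216. JAK2 was at least 1.76-fold higher there, at 80.2 and 41.5 in CD133+ cells, since both CD133- arrays (16.5 and 25.9) were under the floor.

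Across the 6 population means, HLA-B, HLA-C, HLA-F and TAP1 varied together, with Pearson's r between 0.93 and 0.99 for each pair. The 6 points are pairs of fractions from 3 lines, so this likeness mainly describes the order of the lines. Among 6710 genes with a range of at least 1 on the log2 scale, PSMB9 was the third closest to HLA-C (r = 0.996) and the second closest to HLA-F (0.994), and HLA-C was the third closest to HLA-F (0.992). The closest to HLA-B were SLC29A2 (0.995), VGF (0.994) and HAS2AS (0.992), and to TAP1 TTC12 (0.997), TIMM10 (0.996) and C9ORF142 (0.995). HLA-C was closest to an unnamed transcript and TIMM10 (0.996), and HLA-F to SNHG9 (0.998). For HLA-E the closest were FOXA2 (0.999), HKDC1 (0.999) and LZTS2 (0.999). B2M was closest to GIT1 (0.992), LOC90120 (0.985) and CDKN2AIP (0.983), TAP2 to FLJ12949 (0.969), ZCCHC4 (0.954) and NACC1 (0.950), and TAPBP to SHANK3 (0.910), GPR108 (0.896) and LOC388925 (0.880).

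Of the 8 genes, 7 lie in the MHC on chromosome 6, in the order HLA-F, HLA-E, HLA-C, HLA-B, TAP2, TAP1 and TAPBP on GRCh38.p14, and B2M lies on chromosome 15. Between HLA-F and TAPBP, 102 other genes were tested. In SNU-216 CD133+ cells, 22.5% of these neighbors were called lower and 4.9% higher, with a median difference of -0.03, while all 7 chromosome 6 genes described here were lower, with a range from -0.98 to -0.32. In KATO-III 29.4% of the neighbors were lower and 19.6% higher, and in SNU-601 8.82% were lower and 10.8% higher. The shares over all genes tested were 14.0% lower and 14.6% higher in SNU-216. They were 20.6% lower and 18.7% higher in KATO-III, and 7.78% lower and 8.59% higher in SNU-601. The neighbors include PSMB8 and PSMB9 and class II genes, and no test set them against the genes described here.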

How the data were processed

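Total RNA of the 12 sorted samples was amplified, labelled and hybridized to the arrays by the authors. The deposited values are linear intensities with a row per gene symbol, which per the study's methods were quantile-normalized. The submitters' processing notes name BeadStudio, and 32.1% of values at or below 0 show that a background was subtracted. The rule that merged several probes into 1 row per gene is not given in the sources used here. Of 34688 rows, 93 were empty. Quantile normalization gives all arrays nearly the same distribution, so a shift shared by all genes cannot be seen.

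The floor was the absolute value of the 1st percentile over the table. Lower intensities were raised to it, and log2 was taken of the deposited intensities. A gene entered the tests if 2 or more arrays exceeded the floor (20147, 58.2%). Tests used limma 3.58.1 (R 4.3.3) with a trend. A mean was fitted for each of the 6 populations (6 residual degrees of freedom), with Benjamini-Hochberg adjustment over all genes tested, two-sided. The comparison over all lines had line as a block (8 degrees of freedom). The fits were checked on simulated data. Lists, motifs and the rule for named genes (list genes called in all 3 lines, the largest call of a list in each direction and line, and the class I regulators and chaperones) were set together with the members, all chosen with earlier results of these data known. Other floors, filters, scalings and blocks were tried, and each array was left out in turn. Some genes of the lists are not reported here. The number of arrays limits the precision. Summaries were computed in Python 3.11.15 with pandas 2.3.3.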

Additional observations from a re-analysis of the deposited data

Results flagged for a closer look

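For each of the 8 genes the CD133 effect differed between the 3 lines by a test of the difference itself, the interaction of line and fraction in limma. The adjusted p was 5.266e-05 for HLA-B, 0.00013 for TAPBP, 0.00056 for HLA-F, 0.00078 for HLA-C, 0.00084 for TAP1, 0.0016 for TAP2, 0.0038 for HLA-E and 0.027 for B2M. The CD133+ minus CD133- differences of the 7 genes other than B2M ran from -0.98 to -0.32 in SNU-216, from -0.05 to 0.50 in KATO-III and from -0.23 to 0.36 in SNU-601. Those of B2M were 0.16 in KATO-III, 0.03 in SNU-216 and -0.13 in SNU-601. Which pair of lines differed was not tested. As 44.4% of all genes tested passed this test, passing it is common on these arrays.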

How the results depend on the processing

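Over all settings, 1326 of 1432 values of the 8 genes kept their direction and their side of the threshold, 75 lost a call, 11 gained a call and 20 changed sign. With only the 4 arrays of a line in the fit, 1 gene was called in KATO-III, 4 in SNU-216 and 0 in SNU-601 (of all genes 5251, 2469 and 209). Without a trend 1 was called in KATO-III and 0 in SNU-601. Without a filter on dim genes 1 was called in KATO-III, and 425 genes over all lines in place of 953. The comparison over all lines called 0 genes with the arrays of a population averaged first and 1 with population as a random block. With an array left out, it called 217 to 851 genes, KATO-III 1 to 3 and SNU-601 0 to 3 of the 8 genes, and SNU-601 2176 to 3175 of all genes. In SNU-216 6 or 7 of the 8 genes were called in these fits.

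Differences that changed sign were small or turned with the fraction, and the cause was not tested. With arrays centred on their medians TAP1 in KATO-III moved to 0.0018 and TAPBP between SNU-601 and KATO-III to -0.0075. In CD133+ arrays alone TAP2 and TAPBP between SNU-216 and KATO-III were -0.15 and -0.29, TAPBP between SNU-601 and KATO-III -0.12, and B2M and TAPBP between SNU-216 and SNU-601 0.0207 and -0.17. In CD133- arrays alone TAP2 between SNU-601 and KATO-III was 0.21. With an array left out, the difference ranged from -0.0813 to 0.18 for HLA-F in KATO-III, from -0.0147 to 0.0482 for HLA-F and from -0.0163 to 0.13 for TAP2 in SNU-601, and from -0.0465 to 0.0268 for TAP2 between SNU-601 and KATO-III. Over all lines it ranged from -0.0054 to 0.0547 for B2M and from -0.12 to 0.0725 for HLA-C.

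Replicate numbers did not pair the samples (r from -0.01 to 0.03 over 15 pairs of populations). With a replicate block, 471 genes were called over all lines, and of the 8 genes 2 in KATO-III, 7 in SNU-216 and 2 in SNU-601.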

Other observations

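Class II genes, which present peptides to CD4+ T cells, were higher in KATO-III CD133+ cells for 11 of 14 listed genes and lower for none. HLA-DPB1 had the largest difference there (1.90 ± 0.23, SE). KATO-III held most of the class II signal, with sums of 28332 to 46022 per array, against 1320 to 1491 in SNU-216 and 3537 to 5275 in SNU-601. In SNU-216 CD133+ cells 2 of the 14 were lower, HLA-DMA (-0.36), a peptide exchange chain named after its values were seen, and CD74, which encodes the invariant chain. CD74 had 34.5 and 28.6 in CD133+ against 103 and 97.2 in CD133- cells, and with 1 of those arrays under the floor it was at least 2.99-fold lower. CD74 was higher in CD133+ cells of KATO-III (0.72) and of SNU-601 (0.94), so its direction by line was that of HLA-B. The class II transactivator CIITA was not called in any line.

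Ligands of the NKG2D receptor of natural killer cells, which are class I-like, moved in different directions. MICA was higher in SNU-216 CD133+ cells (0.83 ± 0.10) at 526 and 472 against 282 and 277, and MICB was lower (-0.70 ± 0.09) at 537 and 536 against 912 and 837. In KATO-III MICB was higher by at least 1.42-fold, at 47.2 and 49.0 against 19.4 and 35.2 with 1 CD133- array under the floor, and ULBP2 was lower (-0.80). MICB was also higher in SNU-601 (0.30). PROCR, a class I-like receptor of protein C, was higher in CD133+ cells of all 3 lines, by 0.63, 0.43 and 0.48 in KATO-III, SNU-216 and SNU-601.

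Interferon response genes did not share the direction of the class I chains in SNU-216. Of 15 listed, 5 were higher and 5 lower in SNU-216 CD133+ cells. IFIT1, an RNA-binding antiviral protein gene, was higher by 1.89 ± 0.10, and MX1, an antiviral GTPase gene, was lower by 0.77. GBP1 was higher in CD133+ cells of all 3 lines (0.78, 0.60 and 0.69 in KATO-III, SNU-216 and SNU-601) and OAS1 was lower in all 3 (-0.97, -0.69 and -0.31). In KATO-III 3 were higher and 7 lower, the largest decrease being that of IFIT2 (-1.76). In SNU-601 4 were higher and 1 lower, led by IFI44L (1.27).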
